A study of Mus musculus with 12 samples.

Results

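Cultured mouse progenitors were compared between libraries numbered 2 and libraries numbered 1, over every expressed gene. The 4 libraries with the number 2 in their name were set against the 4 with the number 1, with the 4 groups of the study as a block, so 8 of the 12 libraries entered. The series describes its samples as coming from 3 independent experiments, and the number is taken here to mark the experiment; that reading is inferred from the library names. All cells were progenitors from bone marrow, c-Kit+/Sca-1+/Lin-, kept in RPMI with SCF at 100 ng/ml and with 20 ng/ml each of the cytokines IL-3 and IL-6, infected with a retrovirus and selected with geneticin. The group MSCV_plko carried the empty MSCV vector and the control shRNA (sh#ctrl). NUPwt_plko carried the NUP98-NSD1 fusion, a leukaemia oncogene that joins a nucleoporin to an H3K36 methyltransferase, with the same control shRNA. NUPwt_sh_69 and NUPwt_sh_70 carried the fusion with shNizp1#1 and shNizp1#2, titled sh#1 and sh#2, which target Nizp1, the zinc finger gene also named Zkscan17. The cells were drug-selected populations, and the labels name no single clones or vector promoters. Each group had 1 library per experiment, and the sources used here give no strain, age or time in culture. The 4 libraries of an experiment are taken to share a round of culture under different vectors. They are not independent cultures of 1 condition, and a p-value below measures how steady a difference was over the 4 groups.

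Progenitors kept in IL-3, IL-6 and SCF tend to become cultures dominated by mast cells, which store proteases in granules and carry the IgE receptor, with smaller numbers of basophils, neutrophils, eosinophils and monocytes. Several programs of such cultures respond quickly to handling and medium. Immediate early genes are transcribed within minutes of a stimulus, interferon-stimulated genes respond to type I interferon through JAK kinases, and cholesterol synthesis genes are raised by SREBP2 when sterols are low. Values are given below as CPM, the reads of a gene scaled to a common library size with TMM factors, always in the order MSCV_plko, NUPwt_plko, NUPwt_sh_69, NUPwt_sh_70. A gene was called higher or lower when its Benjamini-Hochberg adjusted p in edgeR's quasi-likelihood test was under 0.05, and log2 fold changes are experiment 2 minus experiment 1, with their standard error (SE). Where a gene is said to average one value to another, these are the means of the 4 libraries of experiment 1 and of experiment 2.

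The 8 libraries held 3586538 to 6454564 counts, and 3 counts, the limit that a count of 0 allows, corresponded to 0.466 to 0.821 CPM. The mast cell genes fixed as markers were abundant in both experiments: Cpa3, a granule carboxypeptidase that was called slightly lower in experiment 2 (log2 fold change -0.33, SE 0.08, adjusted p = 0.014), averaged 27673 and 22014 CPM, while Kit, which binds SCF, averaged 2629 and 2715 CPM. Zkscan17, the shRNA target, had 63.0, 61.6, 34.4 and 28.2 CPM in experiment 1 and 55.2, 48.6, 25.7 and 17.7 CPM in experiment 2, lower in the shRNA libraries of each experiment and called slightly lower in experiment 2 (log2 fold change -0.39, SE 0.11, adjusted p = 0.036). That call was lost in 8 of 17 alternative fits: DESeq2 (adjusted p = 0.12), the unpaired fit and those that left out a fusion library. Nsd1 had 182, 776, 793 and 689.9 CPM in experiment 1 and 223, 688, 948 and 600.0 CPM in experiment 2, lowest in both empty-vector libraries, and neither it (log2 fold change 0.04, SE 0.10, adjusted p = 0.8) nor Nup98 (log2 fold change 0.12, SE 0.10, adjusted p = 0.4) was called between experiments. Summed over their lists and given as ranges over libraries, B cell markers had 7.48 to 17.7 CPM in experiment 1 and 16.9 to 25.5 in experiment 2, and T and NK cell markers 13.6 to 30.6 and 30.9 to 83.8 CPM. Erythroid genes had 214.6 to 311 and 123.5 to 240.3 CPM. Il7r made up most of the T and NK sum in experiment 2, and Tfrc most of the erythroid sum in every library. These sums thus rest largely on single genes.

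Across all expressed genes the 2 experiments stood well apart. Of 12034 genes tested, 1489 (12.4%) were called higher in experiment 2 and 1123 (9.33%) lower, 2612 (21.7%) in all. Counts of list members called, given below, are to be read against these shares. The higher genes moved further: 657 of them reached a log2 fold change of 1 and 220 reached 2, against 75 and 11 of the lower genes. The median log2 fold change was −0.03 over all tested genes, and the median absolute change of the called genes was 0.58, or 1.49-fold. Direction was the same in 4 of 4 groups for 2547 of the 2612 called genes and for 43.0% of all tested genes. Among the 8 libraries, principal component 1 took up 50.8% of the variance, and experiment accounted for 92.5% of its spread against 4.12% for group. Over all genes, 47.8% of the variance lay between experiments and 29.7% between groups. Group has 4 levels and experiment 2, and a factor with more levels takes up more variance even without an effect. The share of group is thus no measure of a group effect. The differences of any 2 groups correlated over genes with r from 0.383 (NUPwt_sh_69 and MSCV_plko) to 0.717 (both shRNA groups); genes are not independent, and these are descriptions. The counts depended on single groups. With group as a block, leaving out 1 library also takes its partner of the same group out of the comparison. Higher calls fell to 726 without the NUPwt_sh_70 library of experiment 2, and lower calls to 313 without that of experiment 1.

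**Figure D1:**
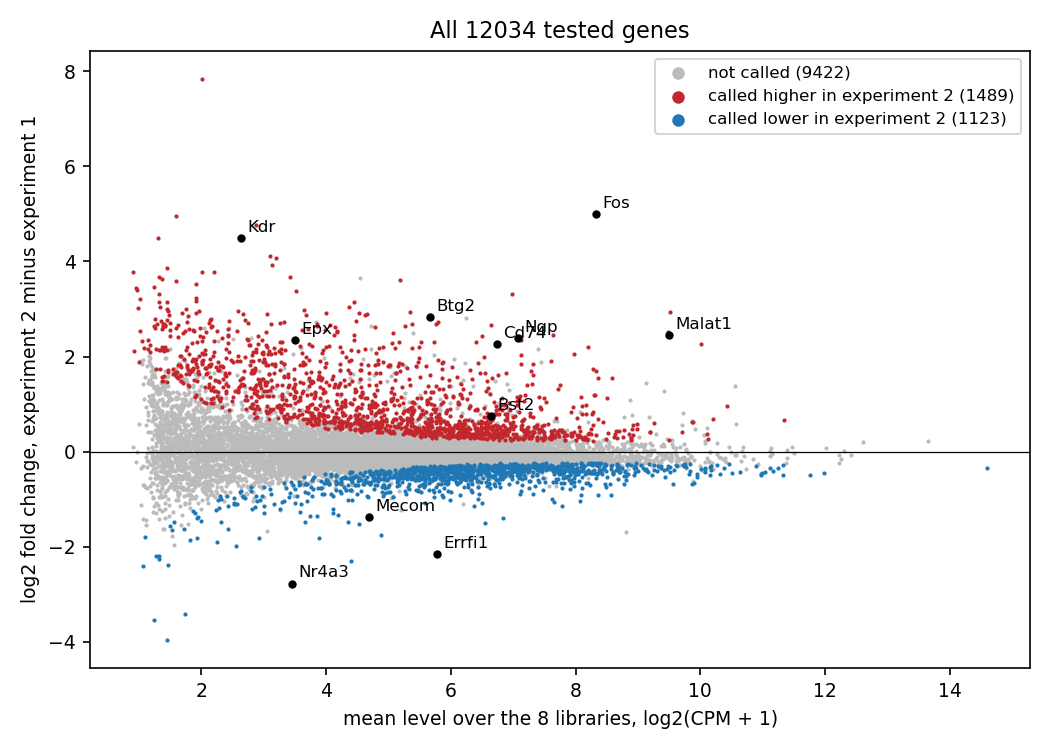
Each point is 1 of 12034 tested genes, with its mean level over the 8 libraries as log2(CPM + 1) on the x axis and the log2 fold change of experiment 2 over experiment 1 on the y axis. Red points (1489) were called higher and blue points (1123) lower; the upper side holds the larger changes, led among named genes by Fos at 4.99.

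The 5 marker genes given for this comparison span different programs, and 4 of them were called higher in experiment 2. Btg2 (chr1:134075170-134079120, mm10), an antiproliferative gene induced early after stress, had 7.44, 6.03, 12.4 and 22.2 CPM in experiment 1 and 42.2, 66.8, 63.0 and 177 CPM in experiment 2. It rose 7.09-fold (log2 fold change 2.83, SE 0.17, adjusted p = 2.4e-05), and every library of experiment 2 was above every library of experiment 1. Ngp (chr9:110419747-110423012), which encodes a granule protein of maturing neutrophils, had 36.0, 71.6, 21.7 and 44.3 CPM in experiment 1 and 278, 296, 109.5 and 213 CPM in experiment 2, again without overlap, and rose 5.25-fold (log2 fold change 2.39, SE 0.14, adjusted p = 3.7e-05). Cd74, the invariant chain that escorts MHC class II, had 27.2, 21.6, 44.2 and 47.0 CPM in experiment 1 and 70.4, 189, 171 and 280.2 CPM in experiment 2. It rose 4.81-fold (log2 fold change 2.27, SE 0.30, adjusted p = 0.0074), least in the empty vector. Epx (chr11:87864000-87875536), the eosinophil peroxidase, had 5.54, 2.37, 0.234 and 4.12 CPM in experiment 1 and 41.7, 18.2, 1.64 and 9.15 CPM in experiment 2 and rose 5.10-fold (log2 fold change 2.35, SE 0.33, adjusted p = 0.0019). Epx was higher in 4 of 4 groups but its libraries overlapped, since NUPwt_sh_69 was lowest in both experiments, and the call was lost when the groups were not paired. Bst2 (chr8:71534255-71537456), an interferon-stimulated gene that tethers budding virus particles, had 44.8, 56.7, 99.1 and 78.0 CPM in experiment 1 and 110.0, 255, 84.3 and 68.3 CPM in experiment 2. It was higher in the empty vector and in the fusion with control shRNA and lower in both shRNA groups, and was not called (log2 fold change 0.75, SE 0.54, adjusted p = 0.39).

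**Figure D2:**
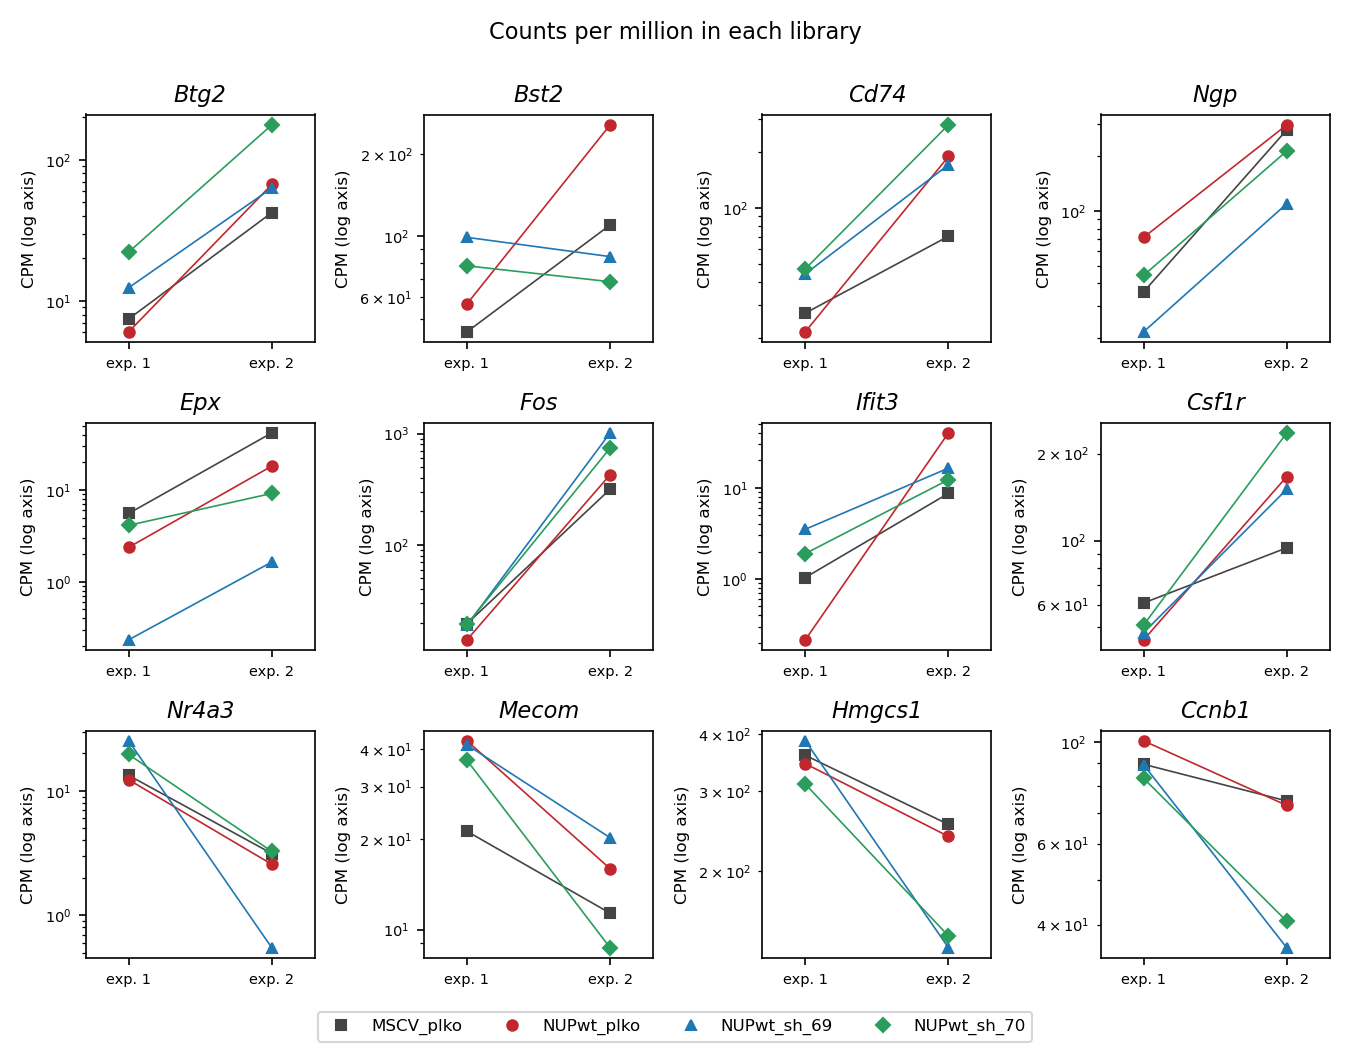
CPM on a log axis for 12 genes, with experiment 1 on the left and experiment 2 on the right of each panel and 1 line per group. The lines run upward in 4 of 4 groups for Btg2, Cd74, Ngp, Epx, Fos, Ifit3 and Csf1r, downward in 4 of 4 for Nr4a3, Mecom, Hmgcs1 and Ccnb1, and in both directions for Bst2.

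Immediate early genes held the largest named change. Of 34 such genes tested, 14 were called higher and 2 lower, with a median log2 fold change of 0.60. Fos, the AP-1 subunit, had 19.6, 14.0, 18.9 and 19.3 CPM in experiment 1 and 317, 428, 1017 and 744 CPM in experiment 2; no library overlapped, and the change was 31.8-fold (log2 fold change 4.99, SE 0.30, adjusted p = 6.8e-04). Ier2, another rapidly induced gene, had 178, 115, 189 and 180.4 CPM in experiment 1 and 959, 980.4, 1676 and 1554 CPM in experiment 2 and rose 7.69-fold (log2 fold change 2.94, SE 0.13, adjusted p = 7.0e-06). Zfp36, whose protein promotes decay of AU-rich cytokine mRNAs, had 23.4, 13.8, 28.1 and 24.7 CPM in experiment 1 and 146, 170.2, 287 and 307 CPM in experiment 2 and rose 9.92-fold (log2 fold change 3.31, SE 0.17, adjusted p = 3.1e-05). Fos, Ier2 and Zfp36 thus stood far above experiment 1 in every group, and in experiment 1 all of them were lowest in NUPwt_plko. The rise was not shared by the whole family. Nr4a3, an orphan nuclear receptor that is also an early response gene, had 13.3, 12.3, 25.2 and 19.6 CPM in experiment 1 and 3.14, 2.57, 0.548 and 3.26 CPM in experiment 2 and fell 6.83-fold (log2 fold change -2.77, SE 0.39, adjusted p = 0.0026). Fosl2, an AP-1 member, was the other gene called lower (log2 fold change -0.90, SE 0.12, adjusted p = 0.0018). Egr3 averaged 694 to 197 CPM and was not called (adjusted p = 0.12).

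Errfi1, Spry4 and Etv4 were among the 15 largest decreases. Errfi1, which restrains EGF receptor signalling, had 110.2, 41.4, 111 and 89.3 CPM in experiment 1 and 8.69, 14.3, 30.1 and 24.98 CPM in experiment 2 and fell 4.44-fold (log2 fold change -2.15, SE 0.35, adjusted p = 0.014). Spry4, a Sprouty inhibitor of receptor tyrosine kinase signalling, had 5.71, 6.47, 6.55 and 7.76 CPM in experiment 1 and 4.10, 2.02, 0.274 and 2.33 CPM in experiment 2 and fell 3.10-fold (log2 fold change -1.63, SE 0.43, adjusted p = 0.026). Etv4, an ETS factor, averaged 28.4 to 10.3 CPM and fell 2.78-fold (log2 fold change -1.47, SE 0.40, adjusted p = 0.046). Genes entered that list of 15 only if their libraries did not overlap, so the lack of overlap is no separate result for them. Without NUPwt_sh_69 of either experiment, or NUPwt_sh_70 of experiment 2, the call of Errfi1 (adjusted p up to 0.0733) was lost. The call of Spry4 (adjusted p up to 0.113) was lost without NUPwt_plko or NUPwt_sh_70 of either experiment, or NUPwt_sh_69 of experiment 1. Without NUPwt_plko or NUPwt_sh_70 of either experiment, the call of Etv4 (adjusted p up to 0.177) was lost. The call lost under other processing was that of Etv4 (adjusted p = 0.062) with length offsets.

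Interferon-stimulated genes were higher in experiment 2, by amounts that differed widely between groups. Many of them carry an interferon-stimulated response element in their promoter. Motif matches were sought on both strands in promoter sequences from RefSeq on GRCm38.p6, each covering the stretch just before and after the gene start. The core GAAANNGAA was present in 20 of the 32 listed interferon-stimulated genes with a promoter in that table (62.5%), against 8.57% of all 27025 promoters. The shares were 21.9% and 8.47% for the STAT site TTCNNNGAA, which can overlap the first motif. A match describes these letters and shows no binding. The stretches below are shown because they belong to members on either side of the test: Ifit3, Ifit3b, Oas1g, Gbp2 and Trim30a were called higher, and Isg15 and Bst2 were not. Capitals mark the matches to GAAANNGAA on either strand, and each run is written 5′ to 3′ on the strand of its gene.
Ifit3, chr19:34583407-34583455, plus strand: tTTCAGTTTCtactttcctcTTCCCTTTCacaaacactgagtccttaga
Ifit3b, chr19:34607803-34607851, plus strand: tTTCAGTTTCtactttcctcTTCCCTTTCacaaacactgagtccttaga
Oas1g, chr5:120887614-120887645, minus strand: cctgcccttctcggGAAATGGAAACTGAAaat
Gbp2, chr3:142620585-142620633, plus strand: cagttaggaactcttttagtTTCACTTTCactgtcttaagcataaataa
Trim30a, chr7:104465200-104465248, minus strand: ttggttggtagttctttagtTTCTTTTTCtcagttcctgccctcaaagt
Isg15, chr4:156200856-156200904, minus strand: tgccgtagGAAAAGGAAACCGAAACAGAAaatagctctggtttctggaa
Bst2, chr8:71537568-71537616, minus strand: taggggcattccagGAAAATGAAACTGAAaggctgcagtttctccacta
The printed stretches of Ifit3 and Ifit3b are identical, and reads of such near-copies can be assigned to either gene, as can those of Oas1g and its neighbours. The core was held by 7 of the 12 members called higher and 13 of the 20 uncalled members.

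All 42 listed interferon-stimulated genes were tested; 16 were called higher and none lower. The median log2 fold change was 1.54 and 41 of 42 lay above 0. DESeq2 called 29 higher, and the unpaired fit 26. Iigp1, an immunity-related GTPase, had 0.173, 0, 1.17 and 0.158 CPM in experiment 1 and 3.38, 13.03, 4.11 and 2.02 CPM in experiment 2 (log2 fold change 3.78, SE 0.70, adjusted p = 0.0063). Ifit3, an inhibitor of viral translation and a cofactor of Ifit1, had 1.04, 0.216, 3.51 and 1.90 CPM in experiment 1 and 8.69, 40.0, 16.4 and 12.3 CPM in experiment 2, without overlap, and rose 10.3-fold (log2 fold change 3.37, SE 0.61, adjusted p = 0.014). Ifit3b averaged 0.358 to 6.84 CPM (log2 fold change 3.77, SE 0.74, adjusted p = 0.01). Mx1, the myxovirus resistance GTPase, had 2.42, 1.08, 6.31 and 4.59 CPM in experiment 1 and 15.2, 83.3, 19.2 and 25.1 CPM in experiment 2 (log2 fold change 3.03, SE 0.71, adjusted p = 0.046). Its highest value, like those of Ifit3, Ifit3b and Iigp1, was in the NUPwt_plko library of experiment 2. In experiment 2 the list's mean log2(CPM + 1) was above that of experiment 1 by 1.73 in MSCV_plko, 2.95 in NUPwt_plko, 0.76 in NUPwt_sh_69 and 0.80 in NUPwt_sh_70. Leaving out the NUPwt_plko library of experiment 2 gave 22 called members, and leaving out either empty-vector library gave 7. Without NUPwt_sh_69 of either experiment 10 were called. Without MSCV_plko of either experiment, or NUPwt_sh_70 of experiment 1, the call of Ifit3 (adjusted p up to 0.071) was lost. The call of Mx1 (adjusted p up to 0.172) was lost without MSCV_plko or NUPwt_sh_69 or NUPwt_sh_70 of either experiment. Under other processing the call was lost for Mx1 (adjusted p = 0.054) with length offsets.

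Part of the sensors and signalling genes of the same pathway also rose. Among 13 nucleic acid sensors, 7 were called higher and none lower, with a median of 1.72, and 4 were called without NUPwt_sh_70 of either experiment. Tlr9, the endosomal receptor for CpG DNA, had 0, 0, 0.468 and 0.317 CPM in experiment 1 and 1.21, 6.42, 1.92 and 3.41 CPM in experiment 2; its experiment 1 values lie at or under the limit of 3 counts (log2 fold change 3.85, SE 0.72, adjusted p = 0.0059). Tlr7, its counterpart for single-stranded RNA, had 2.77, 4.10, 2.57 and 2.53 CPM in experiment 1 and 10.6, 15.96, 8.21 and 14.9 CPM in experiment 2 and rose 4.16-fold (log2 fold change 2.06, SE 0.23, adjusted p = 5.3e-04). Zbp1, a sensor of Z-form nucleic acids, averaged 3.97 to 27.2 CPM (log2 fold change 2.67, SE 0.45, adjusted p = 0.01), and Ifi204, a DNA-binding protein of the HIN-200 family, 11.4 to 55.5 CPM (log2 fold change 2.18, SE 0.33, adjusted p = 0.0081). Of 16 interferon receptors, kinases, STATs and IRFs, 9 were called higher and none lower, with a median of 0.62. Irf8, a factor of monocyte and dendritic cell development, had 6.23, 6.25, 8.42 and 8.55 CPM in experiment 1 and 22.2, 40.0, 28.5 and 40.3 CPM in experiment 2 and rose 4.39-fold (log2 fold change 2.13, SE 0.18, adjusted p = 1.0e-04). Ifngr2 and Ifngr1, the chains of the interferon gamma receptor, averaged 10.8 to 25.1 CPM (log2 fold change 1.22, SE 0.18, adjusted p = 0.0018) and 29.2 to 51.3 CPM (log2 fold change 0.79, SE 0.13, adjusted p = 0.0032). Socs1, the feedback inhibitor of JAK kinases, averaged 78.1 to 134 CPM (log2 fold change 0.79, SE 0.14, adjusted p = 0.0058). The ligands themselves were barely counted: 9 of 10 listed interferon genes had no count in any of the 8 libraries. Ifnb1, the exception, had no count in experiment 1 and 0.241, 0.367, 0.821 and 0.155 CPM in experiment 2, all at or under the level of 3 counts in their libraries. Without MSCV_plko of either experiment, the call of Zbp1 (adjusted p up to 0.0705) was lost.

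Most MHC class II genes rose. Of 10 tested genes of class II and its loading, 8 were called higher and none lower, 9 lay above 0 and 1 below, and the median log2 fold change was 2.36. H2-Aa, the class II alpha chain, had 4.33, 6.47, 14.96 and 15.8 CPM in experiment 1 and 24.1, 68.8, 59.7 and 105 CPM in experiment 2, without overlap, and rose 6.23-fold (log2 fold change 2.64, SE 0.20, adjusted p = 1.0e-04). H2-DMb2, a chain of the peptide editor H2-M, averaged 1.12 to 8.86 CPM (log2 fold change 2.96, SE 0.33, adjusted p = 5.0e-04), and H2-DMb1 0.906 to 5.88 CPM (log2 fold change 2.77, SE 0.43, adjusted p = 0.0025). H2-Ea-ps, whose class II alpha chain is not made in some mouse strains, averaged 5.56 to 41.9 CPM (log2 fold change 2.88, SE 0.36, adjusted p = 0.0033). The list's mean log2(CPM + 1) was higher by 1.09 in MSCV_plko, 1.76 in NUPwt_plko, 1.43 in NUPwt_sh_69 and 2.07 in NUPwt_sh_70. For MHC class I, 6 of 19 genes were called higher and none lower, with a median of 0.36. Nlrc5, the class I transactivator, had 2.42, 1.72, 2.57 and 2.06 CPM in experiment 1 and 6.76, 17.4, 7.39 and 8.22 CPM in experiment 2 and rose 4.25-fold (log2 fold change 2.09, SE 0.33, adjusted p = 0.0029). Psmb10, a subunit of the immunoproteasome, averaged 29.9 to 48.2 CPM (log2 fold change 0.69, SE 0.11, adjusted p = 0.0024). H2-T23, a non-classical class I gene, averaged 340.3 to 459.5 CPM (log2 fold change 0.43, SE 0.10, adjusted p = 0.015). With any fusion library left out, 2 or 3 class I genes were called. Without NUPwt_plko or NUPwt_sh_69 of either experiment, the call of H2-T23 (adjusted p up to 0.0959) was lost.

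Monocyte and macrophage markers rose as well. Of 23 tested, 13 were called higher and none lower, with a median of 1.51. Ly6c2, a surface antigen of inflammatory monocytes that type I interferon also induces, had 2.42, 2.80, 4.91 and 9.18 CPM in experiment 1 and 41.7, 129.9, 45.4 and 45.6 CPM in experiment 2 and rose 12.2-fold (log2 fold change 3.61, SE 0.53, adjusted p = 0.013), highest in NUPwt_plko of experiment 2. Ly6c1, its near-identical neighbour, had 1.38, 1.72, 5.61 and 7.28 CPM in experiment 1 and 22.4, 68.6, 33.4 and 26.2 CPM in experiment 2 (log2 fold change 3.14, SE 0.55, adjusted p = 0.017). Ms4a7 averaged 2.34 to 10.7 CPM (log2 fold change 2.26, SE 0.44, adjusted p = 0.0096). Apoe, an apolipoprotein made by macrophages, had 25.4, 15.9, 17.1 and 30.5 CPM in experiment 1 and 75.3, 81.1, 115 and 73.1 CPM in experiment 2 and rose 3.82-fold (log2 fold change 1.93, SE 0.25, adjusted p = 0.0044). Csf1r, the receptor for M-CSF, had 60.7, 45.3, 47.9 and 51.0 CPM in experiment 1 and 94.3, 167, 151 and 236 CPM in experiment 2; it rose 3.04-fold (log2 fold change 1.61, SE 0.27, adjusted p = 0.014), without overlap. The summed level of the 25 listed markers was 1706 to 2798 CPM in experiment 1 and 3576 to 6365 CPM in experiment 2. The list's mean log2(CPM + 1) was higher by 0.70 in the empty vector and by 1.59 to 1.86 in the fusion groups. Without NUPwt_sh_69 of experiment 1 5 genes of the list were called higher and 1 lower, without that of experiment 2 the numbers were 6 and 1, and the fit of all 12 libraries called 9 higher. A change in the number of cells of a type and a change in RNA per cell cannot be told apart in such bulk samples. This holds for rises and falls, here and for the other cell type markers below. Without MSCV_plko or NUPwt_sh_69 of either experiment, the calls of Ly6c2 (adjusted p up to 0.0913) and Ly6c1 (adjusted p up to 0.108) were lost. The call of Ms4a7 (adjusted p up to 0.054) was lost without NUPwt_sh_70 of either experiment. Without NUPwt_sh_69 of either experiment, or NUPwt_plko of experiment 1, the call of Csf1r (adjusted p up to 0.0925) was lost. Other processing ended the call of Csf1r (adjusted p = 0.078) with all 12 libraries in the fit.

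Dendritic cell markers went both ways: of 15 listed genes 6 were tested, 2 called higher and 2 lower. Itgax, the integrin CD11c, averaged 6.71 to 14.6 CPM (log2 fold change 1.07, SE 0.24, adjusted p = 0.013), and Tcf4, a factor of plasmacytoid dendritic cells, 5.58 to 9.70 CPM (log2 fold change 0.88, SE 0.28, adjusted p = 0.048). Clec10a, a galactose-binding lectin, had 26.0, 62.5, 244 and 50.3 CPM in experiment 1 and 26.3, 33.6, 93.1 and 22.7 CPM in experiment 2 (log2 fold change -0.91, SE 0.21, adjusted p = 0.028), and Ccl17, a chemokine, averaged 2.47 to 0.546 CPM (log2 fold change -2.19, SE 0.59, adjusted p = 0.028). No call of the list remained without a NUPwt_plko or NUPwt_sh_70 library. Genes of cholesterol export and lipid handling, many of them LXR targets, rose in 5 of 11 tested and fell in 1, with a median of 0.89. Abcg1, a cholesterol exporter, had 43.1, 28.4, 31.3 and 34.3 CPM in experiment 1 and 74.3, 97.97, 82.4 and 103 CPM in experiment 2 and rose 2.61-fold (log2 fold change 1.38, SE 0.15, adjusted p = 7.0e-04). Plin2, which coats lipid droplets, averaged 82.2 to 184 CPM (log2 fold change 1.15, SE 0.28, adjusted p = 0.046), and Lpl, lipoprotein lipase, 123 to 224 CPM (log2 fold change 0.89, SE 0.19, adjusted p = 0.022). With any 1 fusion library left out, 2 genes of this list were called higher. Of 20 lysosome genes, 7 were called higher and 2 lower. Psap, the saposin precursor, averaged 953 to 1788 CPM (log2 fold change 0.96, SE 0.23, adjusted p = 0.04), Tfeb, a factor of lysosome genes, 7.69 to 14.0 CPM (log2 fold change 0.87, SE 0.19, adjusted p = 0.013), Gla 42.3 to 63.9 CPM (log2 fold change 0.60, SE 0.10, adjusted p = 0.0034) and Ctsz, a cathepsin, 149.9 to 224 CPM (log2 fold change 0.58, SE 0.10, adjusted p = 0.0039). Without a NUPwt_plko or NUPwt_sh_70 library of either experiment, 2 lysosome genes were called higher. Without NUPwt_plko or NUPwt_sh_70 of either experiment, the calls of Itgax (adjusted p up to 0.0905) and Tfeb (adjusted p up to 0.0831) were lost. The call of Tcf4 (adjusted p up to 0.193) was lost without MSCV_plko or NUPwt_plko or NUPwt_sh_70 of either experiment. Without 1 fusion library, whichever it was, the calls of Clec10a (adjusted p up to 0.114), Ccl17 (adjusted p up to 0.0843), Plin2 (adjusted p up to 0.153), Lpl (adjusted p up to 0.108) and Psap (adjusted p up to 0.152) were lost. Calls lost under other processing were those of Itgax (adjusted p = 0.054), Tcf4 (adjusted p = 0.15), Clec10a (adjusted p = 0.32), Ccl17 (adjusted p = 0.064) and Psap (adjusted p = 0.11) with libraries not paired by group, Tcf4 (adjusted p = 0.06) and Lpl (adjusted p = 0.39) with all 12 libraries in the fit, Tcf4 (adjusted p = 0.084) in DESeq2, and Tcf4 (adjusted p = 0.3) with length offsets.

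Neutrophil maturation genes were higher throughout. Of 24 tested genes of secondary and tertiary granules and late neutrophil stages, 18 were called higher and none lower, all 24 lay above 0, and the median was 1.93. Ly6g, the surface antigen that defines mouse neutrophils, had 7.44, 4.31, 3.51 and 4.75 CPM in experiment 1 and 27.0, 23.9, 19.2 and 46.5 CPM in experiment 2, without overlap, and rose 5.75-fold (log2 fold change 2.52, SE 0.23, adjusted p = 1.9e-04). Padi4, which citrullinates histones in neutrophils, had 2.08, 3.02, 0.701 and 2.53 CPM in experiment 1 and 16.6, 11.6, 5.75 and 19.4 CPM in experiment 2 and rose 6.38-fold (log2 fold change 2.67, SE 0.27, adjusted p = 2.9e-04). Cxcr2, a chemokine receptor, averaged 1.32 to 7.42 CPM (log2 fold change 2.46, SE 0.43, adjusted p = 0.0048), and Csf3r, the G-CSF receptor, had 3.98, 3.66, 6.31 and 6.01 CPM in experiment 1 and 20.3, 39.8, 17.2 and 34.9 CPM in experiment 2 (log2 fold change 2.45, SE 0.27, adjusted p = 6.3e-04). The number called was 17 to 20 with any 1 of the 8 libraries left out. The list's summed level was 338 to 592 CPM in experiment 1 and 1117 to 2173 CPM in experiment 2. Primary granule genes, which belong to earlier stages, differed by group: the list's mean log2(CPM + 1) was higher by 1.45, 1.59 and 0.84 in MSCV_plko, NUPwt_plko and NUPwt_sh_69 and was lower by 0.20 in NUPwt_sh_70. Of 9 tested, Nkg7 alone was called (log2 fold change 1.63, SE 0.38, adjusted p = 0.016). Without NUPwt_sh_70 of either experiment 4 were called. Without a fusion library, whichever it was, the call of Nkg7 (adjusted p up to 0.0958) was lost.

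Eosinophil genes were also higher in experiment 2, from low levels. Of 9 tested eosinophil genes 5 were called higher and none lower, with a median of 2.35. Prg2, the major basic protein of eosinophil granules, had 9.87, 6.90, 1.87 and 6.17 CPM in experiment 1 and 121, 36.7, 5.20 and 23.7 CPM in experiment 2 and rose 6.16-fold (log2 fold change 2.62, SE 0.32, adjusted p = 0.0023), most in the empty vector and least in NUPwt_sh_69 and NUPwt_sh_70. Alox15, the lipoxygenase of eosinophils, had 0.519, 0.216, 0 and 0.158 CPM in experiment 1 and 4.34, 2.38, 1.09 and 4.03 CPM in experiment 2 (log2 fold change 3.62, SE 0.57, adjusted p = 0.0029). Ear6, an eosinophil ribonuclease with near-identical relatives, averaged 0.523 to 5.04 CPM (log2 fold change 3.16, SE 0.64, adjusted p = 0.0089), and Prg3 0.361 to 3.08 CPM (log2 fold change 3.14, SE 0.70, adjusted p = 0.013). When the groups were not paired, 2 eosinophil genes were called. Prss34, a basophil protease, had 11.9, 9.70, 2.81 and 11.4 CPM in experiment 1 and 84.2, 58.0, 80.2 and 58.2 CPM in experiment 2, without overlap, and rose 7.70-fold (log2 fold change 2.95, SE 0.35, adjusted p = 0.0041). Mcpt8, the protease that marks basophils, had 52.3, 73.3, 47.9 and 45.1 CPM in experiment 1 and 263, 279, 168 and 182 CPM in experiment 2 and rose 4.06-fold (log2 fold change 2.02, SE 0.10, adjusted p = 7.0e-06). Of 8 listed basophil markers these were the 2 called, against 5 without either MSCV_plko library. The basophil list summed to 12550 to 13020 CPM in experiment 1 and 11330 to 13650 CPM in experiment 2. Mcpt8 and Prss34 were a small part of that sum, and the list holds Fcer1a and Gata2, which are also on the mast cell list. Without NUPwt_plko of either experiment, or NUPwt_sh_70 of experiment 2, the call of Prg3 (adjusted p up to 0.0526) was lost. Under other processing the call was lost for Prg2 (adjusted p = 0.054), Ear6 (adjusted p = 0.056) and Prg3 (adjusted p = 0.065) with libraries not paired by group.

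Mast cell genes, abundant in every library, moved in both directions. Of 17 tested granule genes 4 were called higher and 5 lower, with a median log2 fold change of −0.06. Besides Mcpt8, which is on this list too, the tryptases rose: Tpsab1 had 950.4, 672, 783 and 1153 CPM in experiment 1 and 1639, 1308, 912 and 1965 CPM in experiment 2 (log2 fold change 0.69, SE 0.12, adjusted p = 0.0044), and Tpsg1 averaged 37.2 to 63.4 CPM (log2 fold change 0.80, SE 0.11, adjusted p = 0.0016). Mcpt2, a chymase, had 52.4, 39.7, 32.3 and 22.2 CPM in experiment 1 and 34.7, 20.9, 15.3 and 12.1 CPM in experiment 2 and fell 1.80-fold (log2 fold change -0.85, SE 0.13, adjusted p = 0.0024). With 1 library left out, 3 to 5 granule genes were called lower, and the unpaired fit called 2. The granule list made up 4.88 to 6.42% of all counts in the 8 libraries. Among 22 receptors and regulators 4 were called higher and 3 lower, against 12.4% and 9.33% of all tested genes, with a median of −0.07. Mrgprb2, the receptor for basic secretagogues, averaged 31.2 to 69.1 CPM (log2 fold change 0.998, SE 0.24, adjusted p = 0.031), and Mrgprb1 24.0 to 49.6 CPM (log2 fold change 1.03, SE 0.22, adjusted p = 0.016). Ltc4s, leukotriene C4 synthase, averaged 44.2 to 30.8 CPM (log2 fold change -0.53, SE 0.11, adjusted p = 0.0098), and Syk, the kinase below the IgE receptor, 119 to 165 CPM (log2 fold change 0.46, SE 0.10, adjusted p = 0.01). No receptor or regulator was called higher without NUPwt_sh_70 of either experiment, and 1 without NUPwt_sh_69 of either or NUPwt_plko of experiment 1. Without 1 of the 6 fusion libraries, whichever it was, the call of Mrgprb2 (adjusted p up to 0.106) was lost. The call of Mrgprb1 (adjusted p up to 0.0728) was lost without NUPwt_sh_69 or NUPwt_sh_70 of either experiment. Without NUPwt_sh_70 of either experiment, the call of Ltc4s (adjusted p up to 0.071) was lost. The call of Syk (adjusted p up to 0.0687) was lost without NUPwt_sh_70 of either experiment, or NUPwt_plko of experiment 1. Other processing ended the calls of Tpsab1 (adjusted p = 0.062), Mcpt2 (adjusted p = 0.12) and Mrgprb2 (adjusted p = 0.16) with libraries not paired by group; Tpsab1 (adjusted p = 0.37) and Mrgprb2 (adjusted p = 0.1) with all 12 libraries in the fit.

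Several transcription factors of stem and progenitor cells fell while Cebpa, a driver of granulocyte fate, rose. Of 20 tested 2 were called higher and 5 lower, against 12.4% and 9.33% of all tested genes. The list's median log2 fold change was 0.06, with 11 members above 0 and 9 below. Mecom, needed by haematopoietic stem cells, had 21.3, 42.7, 41.4 and 36.7 CPM in experiment 1 and 11.3, 15.96, 20.3 and 8.69 CPM in experiment 2, without overlap, and fell 2.59-fold (log2 fold change -1.37, SE 0.19, adjusted p = 0.0018). Meis1, a HOX cofactor, had 98.7, 132, 117 and 139.6 CPM in experiment 1 and 54.5, 65.7, 53.9 and 56.8 CPM in experiment 2 and fell 2.10-fold (log2 fold change -1.07, SE 0.09, adjusted p = 1.3e-04). Hlf, another stem cell factor, averaged 39.4 to 22.4 CPM (log2 fold change -0.84, SE 0.18, adjusted p = 0.01). Cebpa had 7.96, 4.10, 2.57 and 6.65 CPM in experiment 1 and 16.6, 24.6, 23.5 and 29.8 CPM in experiment 2 and rose 4.40-fold (log2 fold change 2.14, SE 0.30, adjusted p = 0.0022). Hoxa9, which NUP98 fusions activate, had 0.173, 18.5, 14.3 and 15.98 CPM in experiment 1 and 0.724, 10.8, 4.11 and 7.60 CPM in experiment 2. It was lower in experiment 2 in the 3 fusion groups and near 0 in the empty vector in both experiments (log2 fold change -1.04, SE 0.29, adjusted p = 0.033). Without NUPwt_sh_70 of experiment 1, 2 stem and progenitor genes were called lower, and without NUPwt_plko of either experiment or NUPwt_sh_70 of experiment 2, 3 were. Without NUPwt_sh_70 of experiment 1, the call of Hlf (adjusted p up to 0.0501) was lost. The call of Hoxa9 (adjusted p up to 0.144) was lost without 1 fusion library, whichever it was. Calls lost under other processing were those of Hlf (adjusted p = 0.094) and Hoxa9 (adjusted p = 0.47) with libraries not paired by group, Hlf (adjusted p = 0.06) with all 12 libraries in the fit, and Hoxa9 (adjusted p = 0.088) in DESeq2.

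Genes of cell division were lower in experiment 2, with the smallest differences in the empty vector; the spread between groups was not tested beyond the comparison of fusion with empty vector described below. Of 34 S phase and replication genes 7 were called lower and none higher, all 34 lay below 0, and the median was −0.45. Rrm2, a ribonucleotide reductase subunit, had 166, 166, 189 and 176 CPM in experiment 1 and 139.7, 121, 71.7 and 76.2 CPM in experiment 2 (log2 fold change -0.82, SE 0.21, adjusted p = 0.04). Tk1, thymidine kinase, averaged 67.9 to 46.0 CPM (log2 fold change -0.59, SE 0.13, adjusted p = 0.013). Of 35 G2 and M phase genes 16 were called lower and none higher, with a median of −0.44. Ccnb1, cyclin B1, had 89.3, 100.4, 89.1 and 83.2 CPM in experiment 1 and 74.3, 72.7, 35.6 and 40.7 CPM in experiment 2, without overlap, and fell 1.68-fold (log2 fold change -0.75, SE 0.17, adjusted p = 0.02). Ube2c, an enzyme of the anaphase-promoting pathway, averaged 127 to 80.2 CPM (log2 fold change -0.71, SE 0.13, adjusted p = 0.0062), and Cdc25c, the phosphatase that activates CDK1, 22.4 to 12.9 CPM (log2 fold change -0.82, SE 0.16, adjusted p = 0.0067). For the G2 and M list the difference of mean log2(CPM + 1) was −0.06 in MSCV_plko, −0.21 in NUPwt_plko, −0.86 in NUPwt_sh_69 and −0.62 in NUPwt_sh_70. For S phase the same differences were 0.05, −0.20, −0.93 and −0.64. No gene of either list was called in that comparison. Without either MSCV_plko library 22 G2 and M genes and 19 S phase genes were called lower; without NUPwt_sh_70 of either experiment 2 and 2 were. Without NUPwt_sh_69 of either experiment the numbers were 8 and 3, without NUPwt_plko of either 10 G2 and M genes, and in the unpaired fit 7. Without NUPwt_sh_69 or NUPwt_sh_70 of either experiment, or NUPwt_plko of experiment 2, the call of Rrm2 (adjusted p up to 0.119) was lost. The call of Tk1 (adjusted p up to 0.0771) was lost without NUPwt_sh_69 or NUPwt_sh_70 of either experiment. Without NUPwt_sh_70 of either experiment, the call of Ccnb1 (adjusted p up to 0.0857) was lost. Under other processing the call was lost for Ccnb1 (adjusted p = 0.053) with libraries not paired by group; Rrm2 (adjusted p = 0.06) with length offsets.

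Inhibitors of the cell cycle did not move one way. Cdkn2a, which encodes p16 and p19ARF, had 12.8, 26.3, 28.5 and 23.4 CPM in experiment 1 and 8.93, 11.4, 7.94 and 10.2 CPM in experiment 2 and fell 2.29-fold (log2 fold change -1.19, SE 0.20, adjusted p = 0.004). Cdkn1b, p27, had 97.4, 102, 92.3 and 144 CPM in experiment 1 and 119.9, 171, 172 and 223 CPM in experiment 2 and rose 1.56-fold (log2 fold change 0.64, SE 0.10, adjusted p = 0.0029). Cdkn2c, p18, averaged 63.0 to 43.4 CPM (log2 fold change -0.55, SE 0.10, adjusted p = 0.0053), and Cdkn2d, p19, 87.7 to 66.4 CPM (log2 fold change -0.41, SE 0.09, adjusted p = 0.0098). Among 13 such genes and D-type cyclins 1 was called higher and 3 lower. Against 12.4% higher and 9.33% lower over all tested genes, 4 of 21 p53 targets were called higher and 1 lower, with a median of −0.01. Btg2 had the largest fold change, followed by Fas, a death receptor, at 2.14 to 5.08 CPM (log2 fold change 1.27, SE 0.35, adjusted p = 0.029), while Sesn2, also an ATF4 target, averaged 98.5 to 62.0 CPM and fell (log2 fold change -0.68, SE 0.12, adjusted p = 0.0044). Without NUPwt_sh_69 or NUPwt_sh_70 of either experiment, 1 p53 target was called higher. Genes of ribosome assembly were called lower in 9 of 32 and higher in 2; Gar1, a snoRNP protein, averaged 31.6 to 21.3 CPM (log2 fold change -0.60, SE 0.18, adjusted p = 0.041), and Utp20, a processome subunit, 32.0 to 48.7 CPM (log2 fold change 0.62, SE 0.14, adjusted p = 0.013). Of 38 cytosolic ribosomal proteins 9 were called lower and none higher, with a median of −0.18, and of 30 nuclear oxidative phosphorylation genes 6 and none, with a median of −0.21. With any 1 fusion library left out, no ribosomal protein gene and 1 oxidative phosphorylation gene were called, and 1 or 2 ribosome assembly genes were called lower. With either MSCV_plko library left out, 20 and 18 of these genes were called lower. Cox5a, a subunit of cytochrome oxidase, averaged 157 to 113 CPM (log2 fold change -0.48, SE 0.09, adjusted p = 0.0048). Mitochondrially encoded genes were not called in any of 7 tested; mt-Co1 had 5645, 5957, 5094 and 6218 CPM in experiment 1 and 4612, 6475, 8239 and 7759.6 CPM in experiment 2. Without NUPwt_plko or NUPwt_sh_70 of either experiment, the call of Cdkn2d (adjusted p up to 0.065) was lost. The call of Fas (adjusted p up to 0.14) was lost without NUPwt_sh_69 or NUPwt_sh_70 of either experiment. Without a fusion library, whichever it was, the call of Gar1 (adjusted p up to 0.204) was lost. The call of Utp20 (adjusted p up to 0.0729) was lost without NUPwt_sh_70 of either experiment. Other processing ended the calls of Gar1 (adjusted p = 0.057) with libraries not paired by group, Fas (adjusted p = 0.062) and Gar1 (adjusted p = 0.06) in DESeq2, and Gar1 (adjusted p = 0.085) and Utp20 (adjusted p = 0.081) with length offsets.

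Cholesterol synthesis genes were lower in experiment 2. All 25 listed genes were tested and lay below 0, 15 were called lower and none higher, and the median was −0.63. Hmgcs1, the synthase before HMG-CoA reductase, had 359, 345, 387 and 311 CPM in experiment 1 and 254, 239, 136 and 144 CPM in experiment 2, without overlap, and fell 1.87-fold (log2 fold change -0.90, SE 0.18, adjusted p = 0.015). Insig1, a sterol sensor and SREBP target, had 272, 237, 267 and 262 CPM in experiment 1 and 164, 159, 91.7 and 115 CPM in experiment 2 and fell 2.00-fold (log2 fold change -1.003, SE 0.16, adjusted p = 0.0056). Hsd17b7, a sterol reductase, averaged 37.9 to 20.6 CPM (log2 fold change -0.93, SE 0.21, adjusted p = 0.015). The list's mean log2(CPM + 1) differed by −0.19 in MSCV_plko, −0.42 in NUPwt_plko, −1.19 in NUPwt_sh_69 and −0.83 in NUPwt_sh_70. Called members were 5 without NUPwt_sh_70 of either experiment and 21 without either MSCV_plko library. Fatty acid synthesis genes gave 1 call in 15, Acss2, the acetyl-CoA synthetase, at 119 to 82.7 CPM (log2 fold change -0.53, SE 0.11, adjusted p = 0.0096). Without NUPwt_sh_70 of either experiment, the calls of Hmgcs1 (adjusted p up to 0.0577), Hsd17b7 (adjusted p up to 0.0756) and Acss2 (adjusted p up to 0.0516) were lost.

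Targets of ATF4, the factor of the integrated stress response, and of the unfolded protein response fell in 10 of 27 and rose in 1. Chac1, a glutathione-degrading enzyme, had 28.4, 34.9, 42.5 and 27.4 CPM in experiment 1 and 8.69, 10.8, 3.56 and 4.19 CPM in experiment 2, without overlap, and fell 4.92-fold (log2 fold change -2.30, SE 0.29, adjusted p = 0.0021). Trib3, a pseudokinase, had 33.1, 53.5, 50.03 and 40.0 CPM in experiment 1 and 14.2, 14.3, 9.58 and 13.5 CPM in experiment 2 and fell 3.35-fold (log2 fold change -1.75, SE 0.18, adjusted p = 3.3e-04). Vldlr, a lipoprotein receptor, averaged 32.8 to 11.6 CPM (log2 fold change -1.51, SE 0.17, adjusted p = 4.7e-04). Cebpb was the member that rose, at 21.8 to 46.2 CPM (log2 fold change 1.08, SE 0.18, adjusted p = 0.0039); the chaperone Hspa5 was not called (log2 fold change 0.03, SE 0.07, adjusted p = 0.76). Of 18 NRF2 and oxidative stress genes 5 were called lower and 1 higher. Srxn1, sulfiredoxin, had 99.0, 88.4, 159.9 and 109 CPM in experiment 1 and 56.2, 50.3, 44.6 and 49.3 CPM in experiment 2 and fell 2.21-fold (log2 fold change -1.15, SE 0.17, adjusted p = 0.004). Nqo1, a quinone reductase, averaged 113 to 59.4 CPM (log2 fold change -0.89, SE 0.14, adjusted p = 0.0029), Gclm, of glutathione synthesis, 72.8 to 45.8 CPM (log2 fold change -0.61, SE 0.13, adjusted p = 0.009) and Txnrd1, thioredoxin reductase, 262 to 179 CPM (log2 fold change -0.54, SE 0.09, adjusted p = 0.0034). Of 11 heat shock genes 2 were called lower, against 9.33% of all tested genes: Dnaja1 (log2 fold change -0.37, SE 0.10, adjusted p = 0.028) and Hsp90aa1 (log2 fold change -0.37, SE 0.09, adjusted p = 0.017). Without 1 of the 6 fusion libraries, whichever it was, the calls of Dnaja1 (adjusted p up to 0.103) and Hsp90aa1 (adjusted p up to 0.11) were lost. Calls lost under other processing were those of Gclm (adjusted p = 0.068) with libraries not paired by group; Dnaja1 (adjusted p = 0.1) in DESeq2.

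Glycolysis and hypoxia genes formed the list with the largest number of calls: 20 of 33 were lower and 6 higher, with a median of −0.36, and the list differed by −0.14 to −0.26 in the 4 groups. Slc2a3, a glucose transporter, had 419.5, 382, 612 and 557 CPM in experiment 1 and 193, 207, 361 and 305 CPM in experiment 2, without overlap, and fell 1.88-fold (log2 fold change -0.91, SE 0.08, adjusted p = 1.6e-04). Bnip3, a mitophagy gene, had 149, 166, 184 and 207 CPM in experiment 1 and 68.8, 99.6, 106 and 112 CPM in experiment 2 (log2 fold change -0.88, SE 0.09, adjusted p = 2.9e-04), and Car9, a carbonic anhydrase induced by hypoxia, averaged 72.9 to 43.4 CPM (log2 fold change -0.75, SE 0.11, adjusted p = 0.0018). Ankrd37, another hypoxia-induced gene, went the other way, with 5.02, 3.88, 5.84 and 10.4 CPM in experiment 1 and 22.7, 21.3, 29.0 and 42.5 CPM in experiment 2 and a 4.62-fold rise (log2 fold change 2.21, SE 0.16, adjusted p = 4.3e-05). With a library left out, 14 to 21 were called lower, and 3 higher without NUPwt_plko of either experiment.

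Receptors and feedback genes of the cytokines in the medium changed in part. Il6ra, the IL-6 receptor, had 2.42, 2.37, 4.21 and 3.798 CPM in experiment 1 and 11.8, 23.3, 14.0 and 28.1 CPM in experiment 2, without overlap, and rose 5.92-fold (log2 fold change 2.57, SE 0.26, adjusted p = 2.9e-04). Il6st, its signalling chain gp130, had 21.6, 11.9, 12.2 and 27.5 CPM in experiment 1 and 38.8, 74.7, 56.4 and 106 CPM in experiment 2 and rose 3.70-fold (log2 fold change 1.89, SE 0.28, adjusted p = 0.0066). With Csf3r, Csf1r and Csf2ra, they were the 5 of 17 tested receptors called higher; none was called lower, and the IL-3 and SCF receptors Il3ra (adjusted p = 0.63) and Kit (adjusted p = 0.71) were not called. Of 14 STAT5 and cytokine feedback genes 7 were called higher and none lower, or 4 without NUPwt_sh_70 of either experiment or NUPwt_sh_69 of experiment 1. Socs3, which restrains gp130, had 13.2, 6.25, 12.9 and 12.2 CPM in experiment 1 and 19.8, 23.3, 30.4 and 61.1 CPM in experiment 2 and rose 2.90-fold (log2 fold change 1.53, SE 0.28, adjusted p = 0.0087). Id1, an inhibitor of basic helix-loop-helix factors, averaged 5.45 to 22.99 CPM (log2 fold change 2.07, SE 0.22, adjusted p = 4.3e-04), and Bcl6, a repressor that STATs regulate, 2.97 to 7.08 CPM (log2 fold change 1.25, SE 0.31, adjusted p = 0.02). Osm, oncostatin M, had 162, 118, 184 and 208 CPM in experiment 1 and 316, 323, 352 and 504 CPM in experiment 2 and rose 2.23-fold (log2 fold change 1.16, SE 0.10, adjusted p = 1.2e-04). For NF-kB targets, 7 of 20 were called higher and none lower: Nfkbiz, an atypical inhibitor, averaged 35.1 to 82.4 CPM (log2 fold change 1.20, SE 0.12, adjusted p = 3.3e-04), Tnfaip2 27.2 to 66.8 CPM (log2 fold change 1.26, SE 0.18, adjusted p = 0.0031), Traf1 1.08 to 3.07 CPM (log2 fold change 1.54, SE 0.45, adjusted p = 0.036) and Cd40, a costimulatory receptor, 0.196 to 1.74 CPM (log2 fold change 3.02, SE 0.77, adjusted p = 0.026). Among 18 tested cytokine and chemokine genes 5 were called higher and 2 lower. Leaving out NUPwt_plko or NUPwt_sh_70 of either experiment gave 3 higher, and leaving out MSCV_plko or NUPwt_sh_70 of either gave 1 lower. Ccl9, a chemokine for monocytes, had 103, 63.2, 73.4 and 85.9 CPM in experiment 1 and 177, 251, 178 and 256 CPM in experiment 2 and rose 2.64-fold (log2 fold change 1.40, SE 0.19, adjusted p = 0.0041). Ccl5 averaged 0.384 to 2.88 CPM (log2 fold change 2.68, SE 0.68, adjusted p = 0.022). Ccl7 had 121, 161, 193 and 174 CPM in experiment 1 and 57.2, 99.4, 34.8 and 64.4 CPM in experiment 2 and fell 2.61-fold (log2 fold change -1.38, SE 0.30, adjusted p = 0.033). Il1r2, the decoy receptor for IL-1, had 88.6, 175, 171 and 114 CPM in experiment 1 and 46.8, 47.9, 60.0 and 36.2 CPM in experiment 2 and fell 2.83-fold (log2 fold change -1.50, SE 0.14, adjusted p = 3.7e-04). Without NUPwt_sh_69 or NUPwt_sh_70 of either experiment, or NUPwt_plko of experiment 1, the call of Bcl6 (adjusted p up to 0.0988) was lost. The call of Traf1 (adjusted p up to 0.206) was lost without NUPwt_plko or NUPwt_sh_70 of either experiment. Without 1 fusion library, whichever it was, the calls of Cd40 (adjusted p up to 0.136) and Ccl5 (adjusted p up to 0.113) were lost. The call of Ccl7 (adjusted p up to 0.148) was lost without MSCV_plko or NUPwt_sh_70 of either experiment. Under other processing the call was lost for Ccl9 (adjusted p = 0.073) and Ccl7 (adjusted p = 0.067) with all 12 libraries in the fit, Traf1 (adjusted p = 0.1) and Cd40 (adjusted p = 0.076) in DESeq2, and Ccl7 (adjusted p = 0.054) with length offsets.

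**Figure D3:**
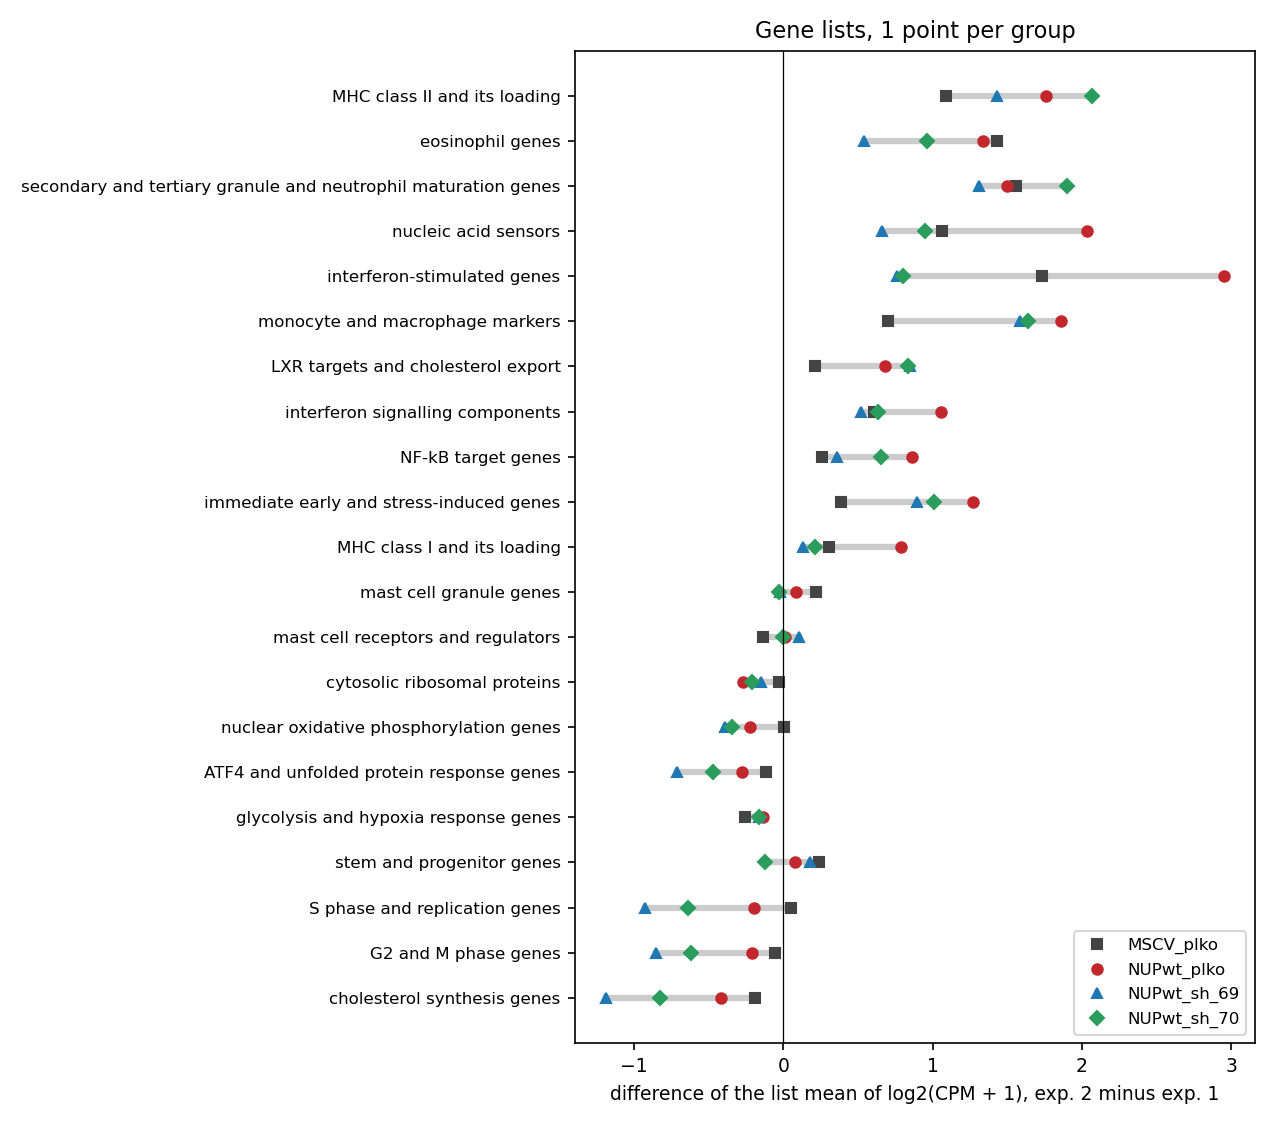
Difference of each gene list's mean log2(CPM + 1) between experiment 2 and experiment 1, with 1 point per group and a bar over their range. MHC class II, neutrophil, monocyte and interferon lists lie above 0 in 4 of 4 groups, with interferon-stimulated genes from 0.76 to 2.95, and the cholesterol list lies below 0 in 4 of 4, from −0.19 to −1.19.

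Endothelial, stromal, platelet, erythroid and lymphoid markers gave scattered calls. Kdr, the VEGF receptor of endothelium, had 0.346, 0, 0.701 and 0.475 CPM in experiment 1 and 5.55, 21.8, 4.11 and 8.69 CPM in experiment 2; the experiment 1 values are at or under 3 counts, and the fit gave a log2 fold change of 4.49 (adjusted p = 0.0014). Flt1, the related receptor, had 0.173, 0, 0.701 and 0.633 CPM in experiment 1 and 0.724, 11.6, 3.01 and 5.43 CPM in experiment 2 (log2 fold change 3.52, SE 0.66, adjusted p = 0.0065), and Cdh1, E-cadherin, 1.73, 1.08, 0.468 and 2.22 CPM in experiment 1 and 19.3, 10.5, 14.2 and 28.2 CPM in experiment 2 (log2 fold change 3.68, SE 0.26, adjusted p = 4.1e-05). Of 18 listed endothelial and stromal markers 3 were tested: Kdr, Tek, the angiopoietin receptor, at 9.67 to 14.96 CPM (log2 fold change 0.64, SE 0.17, adjusted p = 0.026), and Pecam1, a platelet and endothelial adhesion molecule, which fell (log2 fold change -0.40, SE 0.09, adjusted p = 0.015). The list summed to 383.6 to 475.5 CPM in experiment 1 and 269.7 to 416.7 in experiment 2, most of it Pecam1. Platelet and megakaryocyte genes were called higher in 3 of 15 and lower in 4, against 12.4% and 9.33% of all tested genes. Leaving out NUPwt_sh_69 of either experiment gave 1 higher, and leaving out NUPwt_sh_70 of either gave 2 lower. Itgb3, the beta-3 integrin, had 49.8, 14.0, 20.6 and 25.6 CPM in experiment 1 and 81.3, 70.1, 73.4 and 121 CPM in experiment 2 and rose 3.34-fold (log2 fold change 1.74, SE 0.30, adjusted p = 0.014). Vwf, von Willebrand factor, averaged 45.1 to 92.0 CPM (log2 fold change 1.01, SE 0.12, adjusted p = 5.8e-04), and Ppbp, a platelet chemokine, 2.91 to 9.41 CPM (log2 fold change 1.68, SE 0.39, adjusted p = 0.016). Gp1ba, of the platelet receptor for von Willebrand factor, had 424, 419, 388 and 479 CPM in experiment 1 and 273, 272, 311 and 323 CPM in experiment 2 and fell 1.45-fold (log2 fold change -0.54, SE 0.08, adjusted p = 0.0024). No erythroid, B or T and NK cell marker was called among 3 tested of each. Tfrc averaged 211 to 149.7 CPM, Blnk 7.44 to 11.5 CPM and Il7r 11.7 to 42.9 CPM (adjusted p = 0.062). Without either MSCV_plko library, 1 B and 1 T and NK marker were called higher. Other large named changes were those of Akr1c18, a steroid dehydrogenase (0.932 to 14.5 CPM, log2 fold change 3.93, SE 0.25, adjusted p = 2.4e-05), and Ifit1bl1 (0.717 to 15.6 CPM, log2 fold change 4.07, SE 0.70, adjusted p = 0.01). Hist1h2bg (0.774 to 14.4 CPM, log2 fold change 4.11, SE 0.36, adjusted p = 1.3e-04) and Mir6935, a microRNA locus (0.386 to 12.3 CPM, log2 fold change 4.76, SE 0.43, adjusted p = 1.6e-04), rose, while Capn6 (7.65 to 2.14 CPM, log2 fold change -1.98, SE 0.41, adjusted p = 0.01), Mgarp (10.2 to 2.87 CPM, log2 fold change -1.82, SE 0.23, adjusted p = 9.1e-04), Fhl2 (17.2 to 6.15 CPM, log2 fold change -1.49, SE 0.24, adjusted p = 0.0035) and Nupr1, a stress gene (19.3 to 7.45 CPM, log2 fold change -1.36, SE 0.20, adjusted p = 0.0018), fell. Without a fusion library, whichever it was, the calls of Tek (adjusted p up to 0.124) and Ppbp (adjusted p up to 0.0807) were lost. The call of Pecam1 (adjusted p up to 0.0942) was lost without NUPwt_plko or NUPwt_sh_70 of either experiment. Without NUPwt_sh_69 of either experiment, the call of Itgb3 (adjusted p up to 0.0858) was lost. Other processing ended the calls of Tek (adjusted p = 0.11) and Pecam1 (adjusted p = 0.11) with libraries not paired by group, Tek (adjusted p = 0.07) with all 12 libraries in the fit, and Tek (adjusted p = 0.094) in DESeq2.

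The experiment difference was also compared between the fusion groups and the empty vector. The interaction test called 47 of 12034 genes (0.391%), 39 with a higher and 8 with a lower change in the fusion groups, and 1458 (12.1%) had an unadjusted p under 0.05. The empty vector has 1 pair of libraries, which is assumed to vary as the 3 fusion pairs do. Il7r, the IL-7 receptor, had 21.1, 9.27, 5.38 and 10.9 CPM in experiment 1 and 23.6, 37.8, 35.3 and 74.8 CPM in experiment 2; its change was larger in the fusion groups by 2.35 ± 0.34 (SE), adjusted p = 0.02 on the log2 scale. Lrp1, an endocytic lipoprotein receptor, had 41.7, 25.9, 16.4 and 22.6 CPM in experiment 1 and 91.9, 171, 181 and 240.2 CPM in experiment 2 (interaction 2.05 ± 0.28 (SE), adjusted p = 0.024). Sdc3, a syndecan, had 60.4, 28.9, 29.7 and 31.7 CPM in experiment 1 and 60.3, 135, 112 and 103 CPM in experiment 2 (interaction 1.94 ± 0.23 (SE), adjusted p = 0.0064): the empty vector was level and the fusion groups were higher. Slc37a2, a sugar phosphate transporter, had 32.4, 12.7, 8.42 and 12.7 CPM in experiment 1 and 28.7, 47.7, 44.1 and 78.8 CPM in experiment 2 (interaction 2.496 ± 0.31 (SE), adjusted p = 0.0089). Plxna1, a semaphorin receptor, had an interaction of 2.15 ± 0.35 (SE), adjusted p = 0.029, Lhfpl2 of 2.59 ± 0.39 (SE), adjusted p = 0.021 and Pdpn, podoplanin, of 3.16 ± 0.56 (SE), adjusted p = 0.039. Of genes described above, Csf1r (interaction 1.29 ± 0.22 (SE), adjusted p = 0.039), Itgb3 (1.43 ± 0.23 (SE), adjusted p = 0.028), Psap (1.14 ± 0.19 (SE), adjusted p = 0.029), Lpl (1.002 ± 0.17 (SE), adjusted p = 0.037) and Errfi1 (1.90 ± 0.27 (SE), adjusted p = 0.019) were called. Errfi1 was lower in all groups, most in the empty vector. In the other direction Epha3, an ephrin receptor, had 9.0, 71.1, 31.6 and 62.2 CPM in experiment 1 and 18.6, 34.5, 10.4 and 17.4 CPM in experiment 2 (interaction -2.51 ± 0.38 (SE), adjusted p = 0.024): it was higher in the empty vector and lower in the 3 fusion groups. Lars2, the mitochondrial leucyl-tRNA synthetase, had 334, 763, 930.2 and 839.9 CPM in experiment 1 and 891, 682, 859.9 and 645 CPM in experiment 2 (interaction -1.64 ± 0.17 (SE), adjusted p = 0.0033). Mir6236, which like Lars2 was lowest in the empty vector of experiment 1, had 141, 336, 418 and 335 CPM in experiment 1 and 453, 271, 365 and 249 CPM in experiment 2 (interaction -1.998 ± 0.16 (SE), adjusted p = 6.3e-04). Lars2 and Mir6236 moved alike, higher in the empty vector of experiment 2 and lower in the fusion groups. Whether reads at these loci stem from the named genes or from other RNA was not tested. The numbers of genes called in the interaction test rested on single fusion groups, since a library left out takes its partner out of the comparison. They ranged from 0 to 588 higher and from 1 to 669 lower. Without NUPwt_sh_70 of experiment 2 they were 0 and 1. The 588 higher came without NUPwt_plko of experiment 1, and the 669 lower without that of experiment 2.

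**Figure D4:**
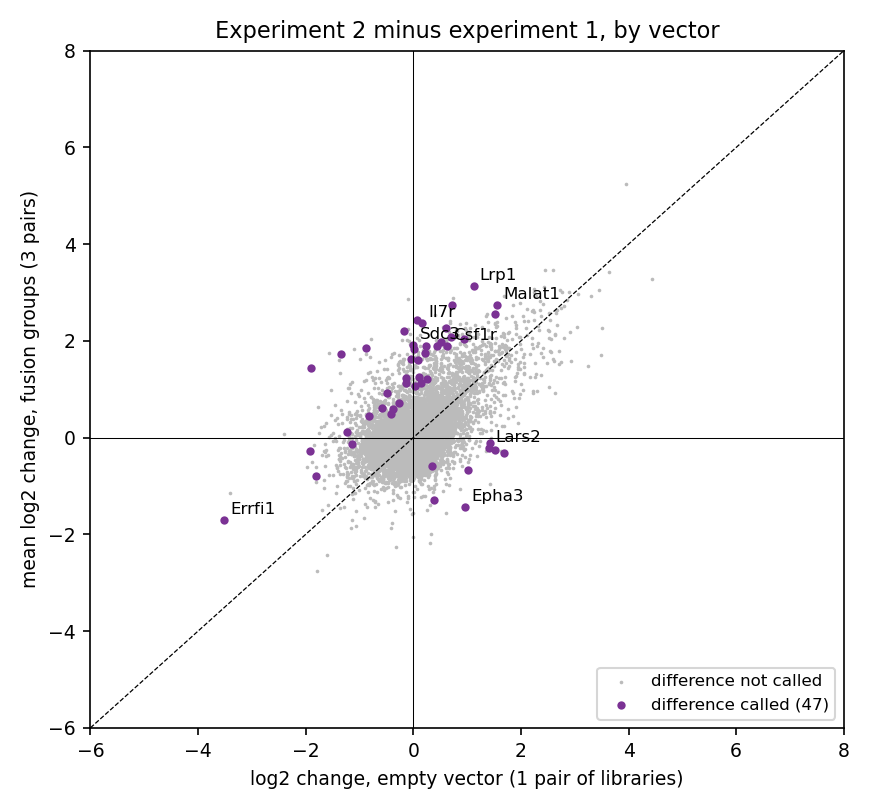
Log2 change of each tested gene from experiment 1 to experiment 2 in the empty vector (x axis, 1 pair of libraries) and averaged over the 3 fusion groups (y axis), with equal change on the dashed line. The 47 purple genes were called in the interaction test; Lrp1, Il7r, Sdc3, Csf1r and Malat1 lie above the line, and Epha3 and Lars2 below it.

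Properties of transcripts moved with the difference between experiments. Malat1, an abundant long nuclear RNA, had 292, 202, 148 and 257 CPM in experiment 1 and 856, 1216, 1121 and 1695 CPM in experiment 2, without overlap, and rose 5.45-fold (log2 fold change 2.45, SE 0.25, adjusted p = 0.003); its rise was larger in the fusion groups (interaction 1.19 ± 0.17 (SE), adjusted p = 0.019). Kcnq1ot1, an imprinted long nuclear RNA, had 1.73, 1.72, 0.468 and 2.06 CPM in experiment 1 and 7.24, 4.04, 9.03 and 7.91 CPM in experiment 2 (log2 fold change 2.16, SE 0.40, adjusted p = 0.0058), and of 5 tested long nuclear RNAs these were the 2 called. The class did not move as a whole: 3 of the 5 lay above 0 and 2 below, with a median of 0.20 and a lowest value of -0.62. In MSCV_plko the list's summed level went from 1836 CPM in experiment 1 to 1570 CPM in experiment 2. Of 37 snoRNA genes 12 were called higher and none lower, with a median of 0.79, against 12.7% and 9.98% of 11072 protein-coding genes. Replication-dependent histone genes, whose mRNAs mostly lack a poly(A) tail, made up 0.017 to 0.026% of counts in experiment 1 and 0.034 to 0.046% in experiment 2. Most of that share in every library was Hist1h1c, so the share mainly follows this gene, and 5 of the 21 listed genes were tested. Whether the Hist1h1c reads came from transcripts with a tail was not tested. Hist1h1c had 246, 173, 143 and 185 CPM in experiment 1 and 301, 331, 384 and 425 CPM in experiment 2 (log2 fold change 0.96, SE 0.18, adjusted p = 0.013). Gene length was related as well: with tested genes split into 5 bins by length, 7.51% were called higher and 10.2% lower in the shortest bin, 23.5% and 5.78% in the longest, and the median log2 fold change went from −0.13 to 0.15. Spearman's rho with length was 0.21 over genes, a description. Their part in the results was not tested. With a length trend removed from each library, an alternative added after the data were seen, 1264 genes were called higher and 967 lower, and 1983 of the 2612 calls were kept while 16 genes changed sign. Under it the lists' medians were 1.56 for interferon-stimulated genes, 2.47 for MHC class II, 2.03 for neutrophil genes, −0.57 for cholesterol synthesis, −0.06 for ribosomal proteins and −0.09 for oxidative phosphorylation. Ribosomal protein calls went from 9 to 1 and oxidative phosphorylation calls from 6 to 2, G2 and M calls from 16 to 10, S phase calls from 7 to 4, and the call of Kcnq1ot1 was lost.

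**Figure D5:**
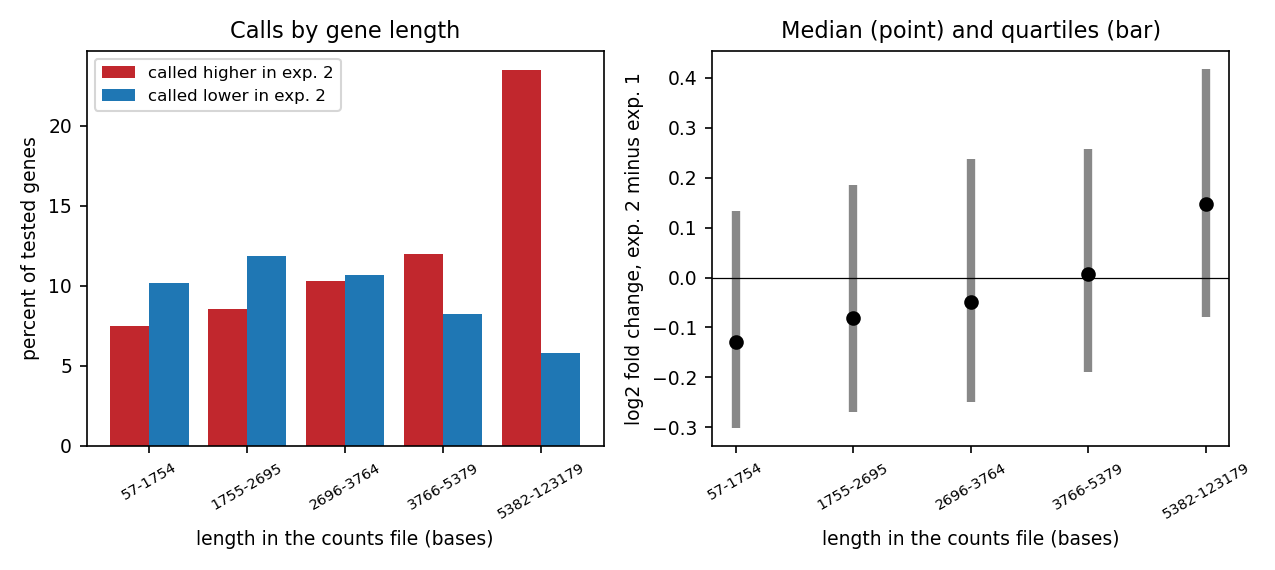
Tested genes in 5 bins of about equal number by the length given in the counts file, in bases, with the percent called higher and lower in experiment 2 (left, bars from 0) and the median and quartiles of the log2 fold change (right). The percent called higher goes from 7.51 in the shortest to 23.5 in the longest bin.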

How the data were processed

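Polyadenylated RNA (1 ug) was made into stranded libraries and read as single 75 nt reads. Trimmomatic 0.32, STAR 2.5.3a with mm10 and featureCounts are the tools listed in the submitters' processing notes; the sources used here give no strand setting, featureCounts version or annotation. The deposited values are raw counts per gene, as whole numbers. Overlapping or antisense genes and near-identical copies (Ifit3 and Ifit3b, Oas1a and Oas1g, Ly6c1 and Ly6c2, Ear, Mcpt, H2 and histone genes) may share reads. From these counts, R 4.3.3 with edgeR 4.0.16 computed TMM factors, CPM and the robust quasi-likelihood test of experiment with group as a block, after filterByExpr (minimum count 10, minimum total 15); p-values were adjusted by Benjamini-Hochberg at 0.05 over all 12034 genes tested. The interaction with fusion or empty vector was fitted in the same way.

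Library totals of 3586538 to 6454564 counts limit the precision of genes at a few CPM, and fitted fold changes of genes with 0 to 3 counts per library depend on the prior count. List levels are means of log2(CPM + 1) over tested members. Alternatives were DESeq2 1.42.0, limma 3.58.1 (voom), other size factors and filters, an unpaired fit, all 12 libraries, length offsets and each library left out. With group as a block, leaving out either library of a group gives nearly the same fit, so those fits are not separate checks. Deviations of libraries of the same group correlated across the 2 experiments at 0.064 (MSCV_plko), 0.018 (NUPwt_plko), 0.200 (NUPwt_sh_69) and 0.264 (NUPwt_sh_70); the highest correlation with another group was 0.103, 0.155, 0.025 and 0.092, above the same-group value in the first 2. The labels do not tie the libraries of a number to separate animals or cultures, so the p-values reflect only how these libraries vary, which may be technical.

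The genes given, the 47 lists and the markers were chosen with earlier results of these data known. Named genes are the 5 given markers, the label checks, the 15 largest called changes in each direction (mean of at least 5 CPM in the higher experiment, 4 of 4 groups, no overlap, no predicted or pseudogene symbol), up to 4 called members per list (or the 2 most abundant where none was called) and up to 10 interaction genes per direction. For genes taken from those 15, such as Fos, Ifit3, Chac1 and Mecom, lack of overlap and a shared direction were conditions of entry. Cpa3 and Kit are from the cell type markers. Fosl2, Egr3, Oas1g, Gbp2, Trim30a, Isg15, Hspa5, Csf2ra and Il3ra fall outside that rule and were chosen after their values were seen. Some genes that the rule names are not reported here.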

Additional observations from a re-analysis of the deposited data

Results flagged for a closer look

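Among 324 sets of 4 libraries (a named gene or list in 1 experiment), 17 held a library standing far from the other 3 by Dixon's test at 95%; chance flags about 1 in 20. In experiment 1, Nsd1 was at 181.9 CPM in MSCV_plko against 690 to 793 CPM in the fusion groups, and Hoxa9 at 0.173 against 14.3 to 18.5 CPM. The HoxA list was at 0.154 (mean log2(CPM + 1)) in the same library against 2.69 to 3.01. H2-DMb2 was at 0.346 CPM there against 1.29 to 1.42 CPM, and Sdc3 at 60.4 against 28.9 to 31.7 CPM. NUPwt_plko of experiment 1 was low for Fos (14.0 against 18.9 to 19.6 CPM), Ier2 (115 against 178 to 189 CPM) and Socs3 (6.25 against 12.2 to 13.2 CPM). NUPwt_sh_69 of experiment 1 was low for Prss34 (2.81 against 9.70 to 11.9 CPM) and Kcnq1ot1 (0.468 against 1.72 to 2.06 CPM).

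In experiment 2, NUPwt_plko stood above the other libraries for Ifit3b (18.2 against 2.79 to 3.38 CPM), Ifit1bl1 (42.2 against 5.90 to 7.94 CPM) and Ly6c2 (129.9 against 41.7 to 45.6 CPM). The same library was highest for the interferon-stimulated list, at 6.74 against 5.39 to 5.46, and for MHC class I, at 7.10 against 6.62 to 6.69, both as mean log2(CPM + 1). NUPwt_sh_69 was low for Trib3 (9.58 against 13.5 to 14.3 CPM), and the T and NK list was highest in NUPwt_sh_70, at 3.18 against 2.51 to 2.58.

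The change from experiment 1 to experiment 2 differed between the fusion groups and the empty vector in the interaction test, on the log2 scale, by 1.896 for Errfi1, 1.29 for Csf1r, 1.002 for Lpl, 1.14 for Psap, 1.43 for Itgb3 and 1.19 for Malat1. It differed by 2.35 for Il7r, 2.05 for Lrp1, 1.94 for Sdc3 and 2.496 for Slc37a2, and by −1.64 for Lars2 and −2.51 for Epha3. The empty vector has 1 pair of libraries.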

How the results depend on the processing

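The counts of 1489 higher and 1123 lower genes stayed within 1.5 times under other size factors, filters, limma-voom, all 12 libraries and length offsets. DESeq2 gave 1203 higher and 669 lower, and 1757 of the 2612 calls were kept. Without the replicate block, with libraries not paired by group, 1336 genes were higher and 786 lower, and 2010 calls were kept. With 1 library left out, the numbers ran from 726 to 1866 higher and from 313 to 1636 lower. Except for the length offsets, where 16 genes changed sign, no called gene changed sign in these fits. The interaction counts of 39 higher and 8 lower became 286 and 110.0 with no filter on low counts, and ran from 0 to 588 and from 1 to 669 with 1 fusion library left out; without an MSCV_plko library it cannot be fitted. Of 2659 pairs of a named gene and an alternative, 2275 kept the direction and the side of the threshold, 378 lost the call, 6 gained it and none reversed. Depth limits genes near 3 counts, or 0.466 to 0.821 CPM.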

Other observations

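The libraries numbered 3 entered none of the comparisons above; on a scale fitted over all 12 libraries their values are as follows. Btg2 averaged 3.76 CPM there, against 12.2 in experiment 1 and 89.2 in experiment 2, and Cd74 averaged 7.67 against 35.4 and 182 CPM. Ngp had 0, 0.195, 0.278 and 0 CPM in its libraries. Fos averaged 11.8 CPM and Nr4a3 0.287 CPM. Mecom averaged 53.8 CPM, against 35.9 and 14.5, and the chymase gene Mcpt2 averaged 102.8 CPM, against 37.0 and 21.4. As mean log2(CPM + 1), the interferon-stimulated list was at 3.07 in experiment 3 (4.21 and 5.796 in experiments 1 and 2), neutrophil maturation genes at 0.648 (3.47 and 5.06), mast cell granule genes at 8.75 (9.03 and 9.12) and cholesterol synthesis genes at 6.64 (6.78 and 6.14).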
